A study of Mus musculus with 7 samples.

Results

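The genes described here encode the mitochondrial ribosomal proteins, in splenic CD4+CD25+ cells of aged and young mice. They were chosen by symbol, as the protein-coding genes of the deposited table whose names begin with Mrpl or Mrps followed by a digit. The choice gave 76 genes of the 25469 with a count in any library, and of the 47729 genes listed in all. It used no measured value. CD4+CD25+ cells are the fraction of T cells that holds most regulatory T cells (Tregs), which restrain immune responses. Below, aged Tregs and young Tregs stand for these isolates as a whole, in which transcripts of other cell types were also found. The labels give wild-type mice and name no treatment, and the study's methods give male C57BL/6 mice. The methods name a regulatory T cell isolation kit for splenic cells used in transfer, and no source used here gives the isolation for these libraries. The aged group held 3 libraries from mice 18 months old, and the young group held 4 libraries from mice given in the labels as 8 weeks old. The study's methods give a slightly older age for its young mice. Libraries were labelled as biological replicates, with no word on whether animals were pooled.

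The mitochondrial ribosome translates the few proteins encoded by mitochondrial DNA, all of them parts of the respiratory chain or of ATP synthase. Its own proteins are encoded in the nucleus, made in the cytosol and imported, while its ribosomal RNAs come from mitochondrial DNA. It has a small subunit, which holds the mRNA and the decoding centre, and a large subunit, which joins amino acids and leads the new chain into the inner membrane through an exit tunnel. T cells build up this machinery when they are activated, and Tregs are known to lean on mitochondrial respiration.

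All 76 genes passed the filter on low counts and were tested. Of these, 4 differed between aged and young Tregs at an adjusted p-value under 0.05, which is 5.26% of them (edgeR's quasi-likelihood test, adjusted over all 13904 genes tested). Over all genes tested 16.7% were called. Mrpl47, Mrpl33 and Mrpl1 were higher in aged Tregs, beside 9.8% of all genes called higher. Mrpl34 was lower, beside 6.94% called lower. All 4 encode proteins of the large subunit that have counterparts in bacterial ribosomes. The share of members called was lower than the share of all genes called, and the largest change among the 76 was a fall of 0.62 on the log2 scale.

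The promoters of these 4 genes are shown because their transcripts were the ones that differed. Each run is 150 bases read 5′ to 3′ on the gene's strand, ending 10 bases after the transcription start that RefSeq gives on GRCm38.p6. Capitals mark matches, on either strand, to GCGCATGC (the core of sites for NRF1, a factor known for genes of mitochondrial proteins) or to CCGGAAG (a core of ETS family sites).
Mrpl47: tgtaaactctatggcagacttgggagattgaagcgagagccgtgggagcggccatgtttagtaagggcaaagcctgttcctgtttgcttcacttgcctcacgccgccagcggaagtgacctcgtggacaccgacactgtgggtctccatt
Mrpl33: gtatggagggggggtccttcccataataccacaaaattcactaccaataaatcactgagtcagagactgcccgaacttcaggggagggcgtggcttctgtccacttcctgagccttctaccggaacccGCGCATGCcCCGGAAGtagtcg
Mrpl1: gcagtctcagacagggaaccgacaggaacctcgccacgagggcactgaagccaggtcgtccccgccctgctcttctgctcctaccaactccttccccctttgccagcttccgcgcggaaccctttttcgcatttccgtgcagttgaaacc
Mrpl34: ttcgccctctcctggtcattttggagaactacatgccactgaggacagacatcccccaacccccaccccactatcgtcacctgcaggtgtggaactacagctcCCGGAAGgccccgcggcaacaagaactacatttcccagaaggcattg
These starts need not be those of the GENCODE genes given with the values: the runs of Mrpl47, Mrpl33 and Mrpl1 lie wholly inside those genes, and that of Mrpl34 ends before its gene begins. The run of Mrpl47 lies at chr3:32736746-32736895 on the minus strand. Those on the plus strand lie at chr5:31613811-31613960 for Mrpl33, at chr5:96209975-96210124 for Mrpl1 and at chr8:71464786-71464935 for Mrpl34. In Mrpl33 the NRF1 match began at position -12 and the ETS match at position -3, where 1 is the first transcribed base. In Mrpl34 an ETS match began at -37. No match to these letters was in the runs of Mrpl47 and Mrpl1.

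Mrpl47 encodes a large-subunit protein near the mouth of the exit tunnel (counterpart of bacterial L29; ENSMUSG00000037531, chr3:32725397-32737605, minus strand, GENCODE M21 on GRCm38, as for all gene positions here). Levels are given as CPM, that is counts scaled to library size, after TMM correction. The Mrpl47 level was 14.8, 15.6 and 14.1 CPM in aged replicates 1, 2 and 3, and 9.61, 11.8, 10.2 and 8.10 CPM in young replicates 1 to 4. Every aged library was above every young one. The aged mean of 14.8 ± 0.742 CPM (SD, n = 3) and the young mean of 9.94 ± 1.55 CPM (SD, n = 4) gave a log2 fold change of 0.58 (SE 0.15, edgeR adjusted p = 0.0376). Exons of Actl6a and Ndufb5 cover 24.2% of its exon length, and counting without strand cannot place reads from shared bases.

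Mrpl33 encodes one of the smallest large-subunit proteins (ENSMUSG00000106918, chr5:31596935-31664384, plus strand). It was measured at 20.8, 26.3 and 26.01 CPM in aged Tregs. The young libraries gave 14.9, 18.2, 16.8 and 15.8 CPM. The groups did not overlap, and aged replicate 1 was closest to the young libraries. The log2 fold change was 0.57 (SE 0.13, edgeR adjusted p = 0.0230). The exon length of its GENCODE gene, 7326 bases, lowers its level per length.

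Mrpl1 encodes the protein of the L1 stalk, which helps the spent tRNA leave the ribosome (ENSMUSG00000029486, chr5:96209493-96266727, plus strand). It was at 22.8, 20.6 and 19.8 CPM in aged Tregs and at 14.2, 16.5, 15.2 and 13.5 CPM in young Tregs. Again no aged library overlapped a young one. The log2 fold change was 0.51 (SE 0.12, edgeR adjusted p = 0.0255), and no other gene's exons overlap it.

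Mrpl34 encodes a small large-subunit protein (ENSMUSG00000034880, chr8:71464959-71465747, plus strand). It was the only member called lower in aged Tregs. The aged libraries gave 10.05, 9.87 and 9.36 CPM, and the young ones gave 11.8, 16.5, 15.9 and 15.98 CPM. Young replicate 1 stood well below the other young libraries and nearest to the aged ones. Their mean of 9.76 ± 0.358 CPM (SD, n = 3) was set against 15.03 ± 2.17 CPM (SD, n = 4), which gave a log2 fold change of -0.62 (SE 0.15, edgeR adjusted p = 0.0281). With young replicate 1 left aside, the value was -0.72 (edgeR adjusted p = 0.0214).

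**Figure D1:**
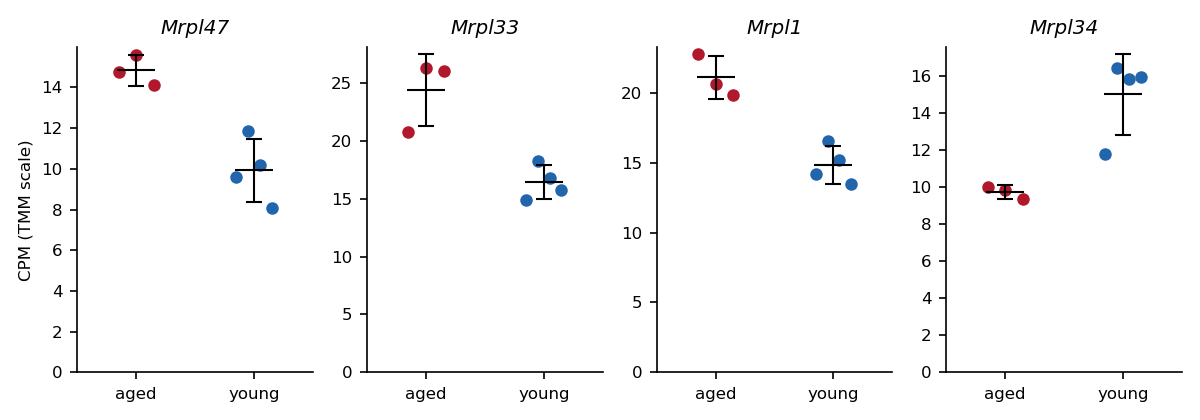
CPM on the TMM scale (vertical axis from 0) of the 4 members called, in 3 aged libraries (red) and 4 young libraries (blue). Each point is a library and the black bars give the mean ± SD. Aged and young points do not overlap in any of the 4 panels, and for Mrpl34 the lowest young library is at 11.8 CPM.

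Scaled by library size only, edgeR called Mrpl34 alone, with adjusted p-values of 0.0873 for Mrpl47, 0.0612 for Mrpl33 and 0.0959 for Mrpl1. With no filter on low counts Mrpl47 and Mrpl1 lost their calls (adjusted p = 0.0647 and 0.0571). None of the 4 calls was kept each time that 1 library was left out. Mrpl1 was called in 4 of the 7 such fits, Mrpl33 and Mrpl34 in 2 each, and Mrpl47 in 1, with adjusted p-values up to 0.0740, 0.0768, 0.0891 and 0.0895 in that order, and the direction was kept in all 7 for each. Over all members, edgeR called 4 without aged replicate 1 and 4 without young replicate 2, beside 21.5% and 14.5% of all genes. It called 1 member without aged replicate 2, 1 without aged replicate 3 and 2 without young replicate 1, beside 12.2%, 8.90% and 9.58% of all genes. Without young replicate 3 or young replicate 4, edgeR called 0 of the 76 genes, with 9 and 8 of them at an unadjusted p-value under 0.05, beside 9.28% and 9.03% of all genes called. The share of all genes called was thus also lower in the fits with few members called.

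Most members differed little between the ages. The median log2 fold change of the 76 genes was -0.03 (interquartile range -0.15 to 0.07), beside 0.02 (-0.23 to 0.33) over all genes tested. The median size of the change, either way, was 0.13 against 0.27 over all genes. Of the members, 30 had a positive and 46 a negative fitted value, beside 7230 and 6674 of all genes tested. The medians moved with the scaling: with library size only they were -0.11 for the members and -0.05 for all genes. The counts of signs depend on the fit, since the fitted sign of 32 members turned in at least 1 alternative. The alternatives include other tools, other filters, a replicate block and fits without 1 library, as well as other scalings. The 95% interval of the log2 fold change lay inside ±0.5 for 51 members (67.1%) and for 28.9% of all genes. It lay inside ±1 for 75 members, and the exception was Mrps34. No member had a fitted change over 1 on the log2 scale.

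**Figure D2:**
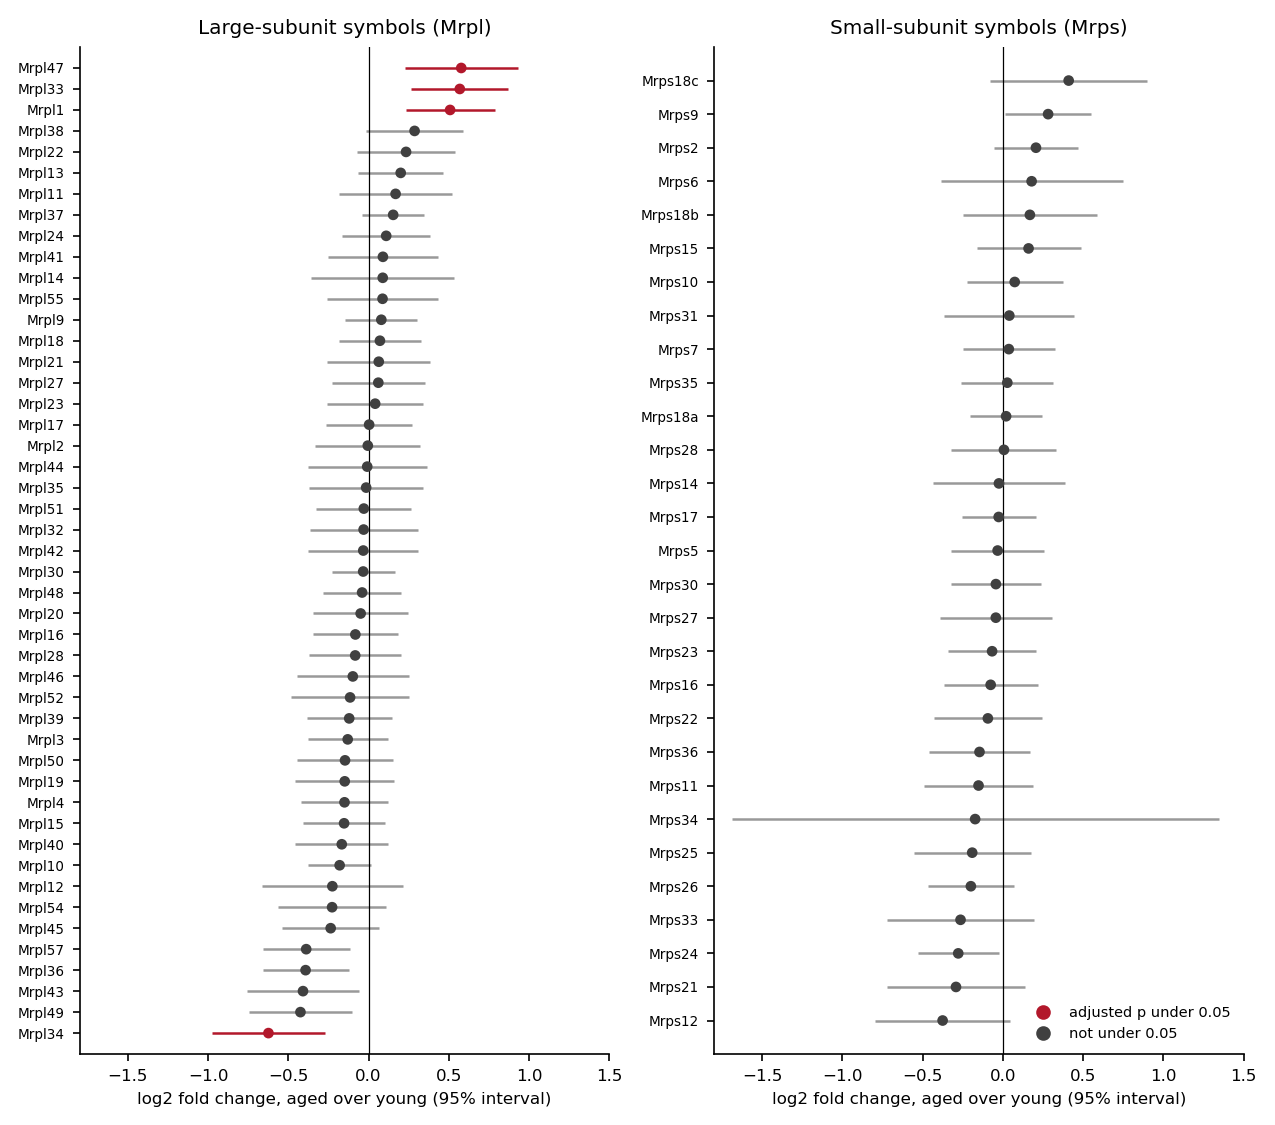
Fitted log2 fold change of aged over young Tregs (points) with its 95% interval (lines) for the 47 Mrpl genes (left) and the 29 Mrps genes (right), ordered by value. Red marks the 4 genes with an adjusted p-value under 0.05; the interval of Mrps34 runs from -1.69 to 1.34, wider than that of any other member.

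The aged and young libraries did not overlap for 10 members (13.2%), with 29.9% over all genes tested. Every aged library was higher for 4 members, beside 15.5% of all genes, and every aged library was lower for 6 members, beside 14.4%. In addition to the 4 genes called, these were Mrps9, higher in aged Tregs, and Mrpl36, Mrpl57, Mrpl49, Mrps24 and Mrpl10, lower. These genes and Mrpl43 were picked out after their values were seen. Mrpl36, a small protein conserved from bacteria, was at 21.8, 18.2 and 17.3 CPM in aged and at 24.9, 24.2, 25.7 and 25.7 CPM in young Tregs (log2 fold change -0.39, SE 0.12, edgeR adjusted p = 0.0532). Its exons overlap those of Ndufs6 over 2.58% of their length. Mrpl57, a large-subunit protein without a bacterial counterpart, was at 14.4, 12.8 and 13.7 CPM in aged and 16.4, 17.4, 19.4 and 18.1 CPM in young Tregs (log2 fold change -0.39, adjusted p = 0.0561). Mrpl49, likewise without a counterpart, had a log2 fold change of -0.42 (adjusted p = 0.0746). None of these passed the threshold in edgeR's test with all libraries. Mrpl36 passed it with DESeq2, limma voom and limma-trend (adjusted p = 0.0444, 0.0499 and 0.0473) and with edgeR without aged replicate 1 (adjusted p = 0.0181), and Mrpl49 without young replicate 2 (adjusted p = 0.04999).

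Once the trends with GC content and gene length had been removed from each library, 7 members were called. They were the 4 above and Mrpl43, Mrpl49 and Mrpl57, all lower in aged Tregs, with adjusted p-values of 0.0433, 0.0419 and 0.0255. In that fit 18.1% of all genes were called. The members are shorter than most genes, with a median exon length of 2394 bases beside 4119 over all genes tested.

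By symbol, the 47 Mrpl genes held all 4 calls (8.51%, beside 16.7% over all genes tested), and their median log2 fold change was -0.03. Among the 29 Mrps genes edgeR called 0, with 2 at an unadjusted p-value under 0.05, and DESeq2, limma voom and limma-trend called 0 as well. Their median log2 fold change was also -0.03. The symbols do not follow the subunits fully, since some Mrps genes encode proteins of the large subunit. These shares are both below that over all genes, and their difference was not tested. By origin, 47 members have a counterpart in the bacterial ribosome and 29 do not. The median was 0.00 for the former, with 24 positive values of 47, and -0.10 for the latter, with 23 negative values of 29. The 4 genes called were all of the former kind (8.51% of it), and edgeR called 0 of the latter, with 3 at an unadjusted p-value under 0.05 and 0 called by DESeq2, limma voom or limma-trend. This split did not hold in every fit, since Mrpl43, Mrpl49 and Mrpl57, which were called once the GC and length trends had been removed, are all of the latter kind, as are Mrpl43 and Mrpl49, called without young replicate 1 and without young replicate 2. The difference between the kinds was not tested.

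Levels per length were compared as RPKM, the CPM divided by the exon length in kilobases. The mean RPKM over the 7 libraries ran from 0.424 to 37.2, with a median of 9.92. The 3 highest were Mrps21, a small-subunit protein conserved from bacteria, and Mrpl52 and Mrpl54, large-subunit proteins that bacteria lack. Mrps21 was at 33.0 ± 6.51 RPKM in aged and 40.4 ± 7.65 RPKM in young Tregs (SD, n = 3 and 4). Mrpl52 was at 33.8 ± 5.68 and 36.6 ± 5.87 RPKM, and Mrpl54 at 29.2 ± 3.79 and 34.2 ± 4.78 RPKM. The order of these 3 lies within the spread between libraries, and none passed the threshold between the ages (log2 fold changes -0.29, -0.12 and -0.23 with edgeR adjusted p-values of 0.324, 0.666 and 0.326).

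The lowest level per length was that of Mrps34, a small-subunit protein that bacteria lack (chr17:24895116-24897502, plus strand). It had 12, 9 and 5 counts in the aged libraries and 22, 12, 2 and 11 counts in the young ones. That is 0.468 to 1.05 CPM in aged and 0.158 to 1.92 CPM in young Tregs, and young replicate 3 is under the limit of 3 counts. Exons of Mapk8ip3 and Nme3 cover 77.8% of its exon length, and the union counting mode drops reads that touch 2 genes, so that reads from those bases are not in its count. Its log2 fold change of -0.17 has an SE of 0.66, and no difference was detectable at these counts. The next lowest was Mrps25, at 1.75 ± 0.276 RPKM in aged and 2.00 ± 0.227 RPKM in young Tregs, with 69.8% of its exon length under exons of Nr2c2. Mrps10 followed at 2.36 ± 0.365 and 2.24 ± 0.0995 RPKM with no overlap. The 4 processed pseudogenes of members in the table summed to between 0 and 0.524 CPM per library, and none passed the filter. Of the 76 genes, 31 share exon bases with another gene, 17 of them over more than 10% of their exon length and 2 over more than 50%. With the 17 left aside, 3 of 59 genes were called (5.08%), and with the 17 alone 1 was (5.88%), namely Mrpl47. Over all genes tested 16.7% were called.

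The S18 family has 3 genes in mouse, whose proteins take different places on the ribosome. Mrps18a, whose protein sits in the large subunit despite its name, was at 24.9, 27.3 and 28.1 CPM in aged and 25.8, 26.4, 26.4 and 26.9 CPM in young Tregs. The fitted change was 0.02 on the log2 scale, with a 95% interval of -0.20 to 0.24. Mrps18b was at 12.3, 8.96 and 10.8 CPM in aged and 9.53, 10.6, 10.5 and 7.45 CPM in young Tregs (log2 fold change 0.17, interval -0.25 to 0.59). Mrps18c, the closest to the bacterial protein, was at 8.65, 10.7 and 13.0 CPM in aged and 5.77, 8.41, 9.24 and 8.96 CPM in young Tregs (log2 fold change 0.41, interval -0.08 to 0.90, edgeR adjusted p = 0.225). The ages overlapped for each of the 3 genes. Per length, Mrps18a and Mrps18c were at 7.19 and 8.59 RPKM and Mrps18b at 4.79 RPKM, means over the 7 libraries. Exons of other genes cover 30.5% of the exon length of Mrps18b and 23.2% of that of Mrps18c but none of that of Mrps18a, so that these levels are not counted over like shares of each gene.

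Some members have known roles beside or apart from the ribosome, or sit at its working centres. Mrpl12, the stalk protein that also binds the mitochondrial RNA polymerase, was at 14.9, 9.57 and 13.5 CPM in aged and 12.9, 18.3, 14.1 and 13.98 CPM in young Tregs (log2 fold change -0.23, SE 0.19, edgeR adjusted p = 0.458). Mrpl44, which carries an RNase III fold, had a log2 fold change of -0.01 (interval -0.38 to 0.36). Mrps12, a protein of the decoding centre, was at 9.35, 14.4 and 11.9 CPM in aged and 12.3, 16.5, 16.8 and 15.9 CPM in young Tregs. With a log2 fold change of -0.38 (SE 0.18, edgeR adjusted p = 0.195) it had the lowest fitted value among the Mrps genes. Mrps36, known as an adaptor of the α-ketoglutarate dehydrogenase complex, was at 10.9 ± 0.169 CPM in aged and 12.1 ± 1.28 CPM in young Tregs (SD, n = 3 and 4; log2 fold change -0.15, interval -0.46 to 0.17). Mrps30, whose protein sits in the large subunit, was at 25.03 ± 2.90 and 25.8 ± 1.99 CPM (log2 fold change -0.04, interval -0.32 to 0.23). None of these 5 genes passed the threshold.

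Further members, chosen after their values were seen, are given by their site on the large subunit. At the base of the stalk that binds translation factors sit Mrpl10 and Mrpl11. Mrpl10 was at 30.1, 30.7 and 29.9 CPM in aged and 33.6, 35.0, 33.9 and 34.7 CPM in young Tregs (log2 fold change -0.18, SE 0.09, edgeR adjusted p = 0.188). All aged libraries lay below all young ones, by a small margin, and exons of Gm11574 cover 14.1% of its exon length. Mrpl11 was at 21.0, 21.8 and 29.3 CPM in aged and 18.4, 23.8, 22.3 and 20.9 CPM in young Tregs (log2 fold change 0.17, interval -0.18 to 0.52). Its highest value was that of aged replicate 3, and the other aged libraries lay among the young ones.

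Around the exit tunnel sit Mrpl22, Mrpl23 and Mrpl24, and Mrpl45 ties the ribosome to the inner membrane. Mrpl22 was at 17.3, 18.5 and 20.5 CPM in aged and 13.4, 16.5, 16.3 and 17.6 CPM in young Tregs (log2 fold change 0.23, SE 0.13, edgeR adjusted p = 0.265). Mrpl23 had a log2 fold change of 0.04 (interval -0.26 to 0.34), whose sign turned with library size only, with the replicate block and without aged replicate 3 or young replicate 4. Mrpl24 was at 62.0, 77.9 and 78.0 CPM in aged and 63.4, 76.6, 61.0 and 68.2 CPM in young Tregs (log2 fold change 0.11, interval -0.16 to 0.38). The ages overlapped for all 3 tunnel genes, and Rrnad1 shares 26.3% of the exon length of Mrpl24. Mrpl45 was at 33.3, 35.9 and 33.2 CPM in aged and 32.3, 47.0, 39.8 and 41.5 CPM in young Tregs (log2 fold change -0.24, SE 0.13, edgeR adjusted p = 0.253). Young replicate 1 held its lowest value and lay below every aged library, while the other young libraries lay above all of them. In the small subunit Mrps24 was lower in every aged library (18.8, 18.4 and 19.9 CPM against 23.7, 24.4, 20.6 and 23.7 CPM; log2 fold change -0.28, edgeR adjusted p = 0.120) and Mrps9 was higher in every aged library (50.8, 48.4 and 60.9 CPM against 38.2, 48.3, 46.04 and 43.1 CPM; log2 fold change 0.28, edgeR adjusted p = 0.139). For Mrps9 aged replicate 2 and young replicate 2 all but met. None of these 8 genes passed the threshold.

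Libraries differed in the summed level of the members more than the ages did. The sum over the 76 genes was 1854, 1944 and 2025 CPM in aged replicates 1 to 3 and 1769, 2136, 2005 and 1988 CPM in young replicates 1 to 4. The lowest and the highest library were both young. The means were 1941 ± 85.1 CPM (SD, n = 3) and 1974 ± 152 CPM (SD, n = 4), a ratio of 0.983. Young replicate 1 had the lowest value of its group for 50 of the 76 genes and young replicate 2 the highest for 40. Haemoglobin transcripts took 10.4% of the gene counts in young replicate 1 and 1.24% in young replicate 2. In the aged libraries they took 1.27%, 13.1% and 7.60%. Their part in the members' spread was not tested. In bulk samples fewer cells of a type and less RNA per cell cannot be told apart.

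**Figure D3:**
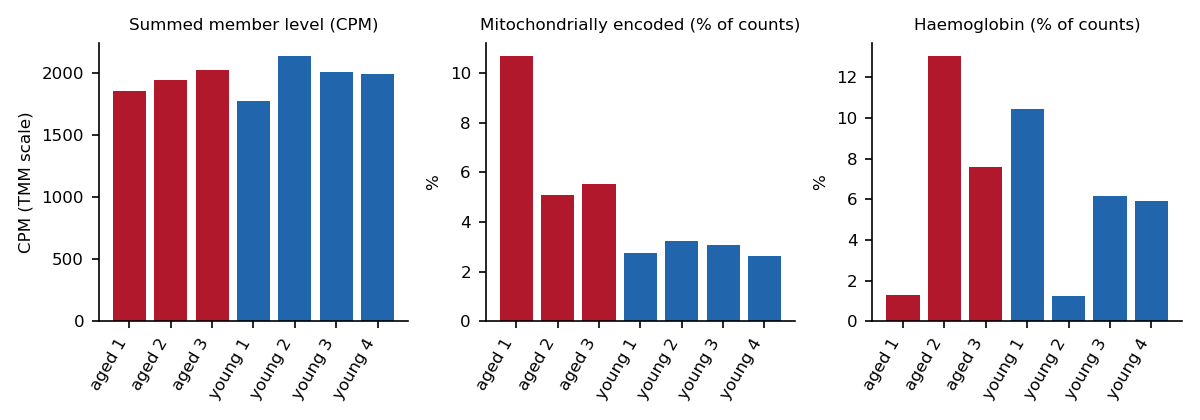
Summed level of the 76 members in CPM (left), and the share of gene counts from mitochondrially encoded genes (middle) and from haemoglobin genes (right), for each aged (red) and young (blue) library; all axes start at 0. The members' sum ranges from 1769 to 2136 CPM across libraries of both ages, while the mitochondrially encoded share is 5.08% to 10.7% in aged and 2.63% to 3.23% in young libraries.

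Gene counts were 10734234 to 13649310 per library, so that 3 counts correspond to 0.220 to 0.279 CPM. The regulatory T cell markers Foxp3 and Il2ra were detected in every library, with means of 516 and 446 CPM for Foxp3 and 380 and 579 CPM for Il2ra in aged and young Tregs, and edgeR called 1 of 6 Treg and T cell markers (Cd3e, higher in aged), or 0 to 2 with 1 library left out. DESeq2 called 3 of the 6, of which 2 were lower, and limma voom and limma-trend called 2, of which 1 was lower. B cell markers were present too. All 7 were detected and edgeR called 0, with 3 at an unadjusted p-value under 0.05. DESeq2 called 3, limma voom and limma-trend 1 each, and edgeR 3 without aged replicate 3, all lower in the aged libraries. They had a summed level of 857 to 1593 CPM in aged and 1293 to 1955 CPM in young libraries. Of 7 neutrophil markers 4 were called, all higher in the aged libraries. Their number was 2 without aged replicate 1, 1 without young replicate 1 or young replicate 4, and 6 without aged replicate 3. The markers had sums of 627 to 4462 CPM in aged and 230 to 814 CPM in young libraries. Erythroid markers summed to 13223 to 160997 CPM in aged and 12624 to 119921 CPM in young libraries. No marker of these 4 lists was at 0 in any library. Of the markers of plasma cells, monocytes or macrophages, dendritic cells, NK cells and platelets, 1 of 4, 3 of 6, 2 of 5, 1 of 4 and 1 of 4 were called, while 0 of 2 CD8 T cell and 0 of 7 cell cycle markers were, by edgeR, DESeq2, limma voom or limma-trend, with 0 at an unadjusted p-value under 0.05. DESeq2 called 3 dendritic cell markers, 2 NK cell markers and 2 of 5 platelet markers. By edgeR the plasma cell and platelet calls were higher in the aged libraries and the NK cell call was lower. The monocyte or macrophage calls were 1 higher and 2 lower, and the dendritic cell calls 1 higher and 1 lower. With 1 library left out the plasma cell, NK cell and platelet counts ran from 0 to 2 each, the dendritic cell count from 2 to 3, and the monocyte or macrophage count was 3 each time. The part of such cells in the members' changes was not tested.

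The mitochondrial genome encodes the mRNAs that this ribosome translates and the rRNAs that it is built on. Of 15 mitochondrially encoded mRNAs and rRNAs, 12 could be tested and 9 of them were higher in aged Tregs (mt-Nd1, mt-Nd2, mt-Co1, mt-Co2, mt-Atp6, mt-Co3, mt-Nd4, mt-Nd6 and mt-Cytb), with 0 lower and a median log2 fold change of 1.37. mt-Cytb, a subunit of complex III, was at 8931, 10149 and 10027 CPM in aged and 4489, 5224, 4906 and 4373 CPM in young Tregs (log2 fold change 1.03, SE 0.16). mt-Nd4, a subunit of complex I, was at 3554, 4174 and 3712 CPM in aged and 1565, 1514, 1602 and 1471 CPM in young Tregs (log2 fold change 1.31, SE 0.13). The ages did not overlap for either gene. The largest fitted changes of the 9 were those of mt-Co2, mt-Atp6 and mt-Co3 (log2 fold changes 1.88, 2.13 and 2.40). Their means were 54.3, 28.4 and 59.9 CPM in aged and 14.8, 6.51 and 11.4 CPM in young Tregs. For mt-Co1 the means were 40862 and 13892 CPM. The cause of the lower levels was not tested. Aged replicate 1 carried the largest mitochondrially encoded share, 10.7% of its gene counts. Without it 9 of 13 genes were called, all higher, with a median log2 fold change of 1.08. Across the fits without 1 library the count ran from 7 of 12 (young replicate 3) to 10 of 13 (aged replicate 2), all higher. Of the genes named above, mt-Co1 was called in 4 of these 7 fits and mt-Atp6 in 6, and the others in all 7. The rRNAs did not pass the threshold, and aged replicate 1 stood far above the other libraries for both. mt-Rnr1, the rRNA of the small subunit, was at 4778, 1060 and 622 CPM in aged and 1030, 289, 432 and 365 CPM in young Tregs (log2 fold change 2.02, SE 0.70, edgeR adjusted p = 0.0841). mt-Rnr2, the rRNA of the large subunit, was at 7159, 1594 and 1109 CPM in aged and 2176, 779, 1003 and 902 CPM in young Tregs (log2 fold change 1.44, SE 0.64, edgeR adjusted p = 0.158). Without aged replicate 1 the log2 fold changes were 0.66 and 0.15 (edgeR adjusted p = 0.371 and 0.824). The ages overlapped for both rRNAs through young replicate 1.

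**Figure D4:**
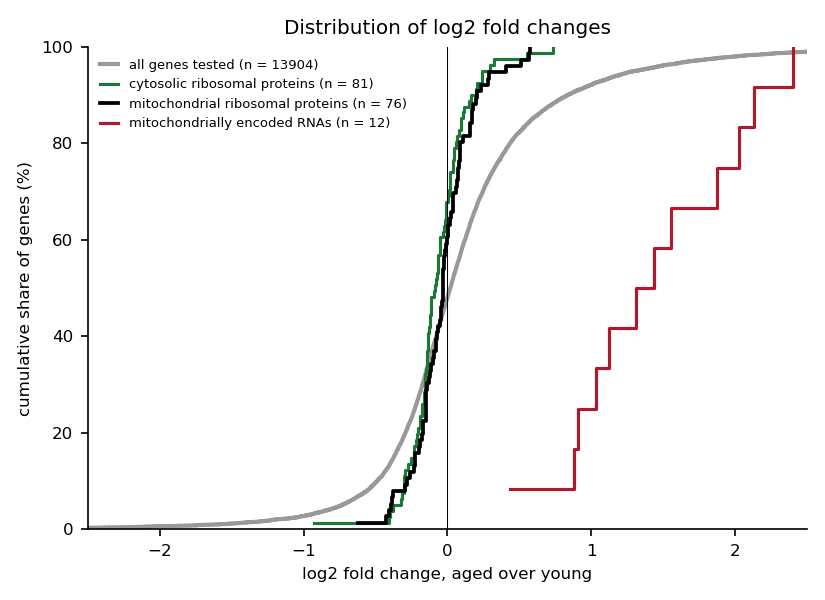
Cumulative share of genes (vertical axis, %) by log2 fold change of aged over young Tregs (horizontal axis; the outermost values of all genes lie beyond it) for all genes tested (grey), the 81 cytosolic ribosomal protein genes tested (green), the 76 mitochondrial ribosomal protein genes (black) and the 12 mitochondrially encoded RNAs tested (red). Both curves of ribosomal proteins rise steeply near 0, with medians of -0.09 and -0.03, while every mitochondrially encoded RNA lies at 0.43 or above.

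The ribosomal proteins of the cytosol were taken as the list most like the members. Among 81 such genes tested 1 was called (Rps27rt, higher in aged Tregs), and the median log2 fold change was -0.09. Without young replicate 4 this call was lost (edgeR adjusted p = 0.0541). DESeq2 called 4 of 82, of which 3 were lower, and 4 of 81 were called, all lower, once the GC and length trends had been removed. Ribosomal proteins of the mitochondrion that carry other symbols (Dap3, Ptcd3, Aurkaip1, Chchd1, Ict1 and Gadd45gip1) gave 0 calls of 6 by edgeR, DESeq2, limma voom and limma-trend, with 1 at an unadjusted p-value under 0.05 in each. That gene, Chchd1, was at 23.2, 23.0 and 23.6 CPM in aged and 23.4, 36.3, 34.7 and 30.7 CPM in young Tregs (log2 fold change -0.43, edgeR adjusted p = 0.0976). Young replicate 1 lay among the aged values, and the other young libraries lay above them. It was called, lower in aged Tregs, without young replicate 1 (log2 fold change -0.54, edgeR adjusted p = 0.0312) and once the GC and length trends had been removed (log2 fold change -0.57, edgeR adjusted p = 0.0193).

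Factors that assemble the mitochondrial ribosome gave 4 calls of 28, or 14.3%, near the 16.7% over all genes tested. Nsun4, which methylates the small-subunit rRNA and helps join the subunits, was higher in aged Tregs (27.4 ± 1.52 against 19.1 ± 1.36 CPM; log2 fold change 0.52). Eral1, a chaperone of the small-subunit rRNA, was higher too (28.3 ± 2.51 against 21.3 ± 1.52 CPM; log2 fold change 0.41), as was Gtpbp10, a GTPase of the large subunit (16.2 ± 3.76 against 9.77 ± 1.38 CPM; log2 fold change 0.73). Noa1, also a GTPase, was lower, at 16.2 ± 3.91 against 27.5 ± 0.869 CPM (log2 fold change -0.76; SD, n = 3 and 4 for each gene). The count ran from 0 without aged replicate 3, with 7 at an unadjusted p-value under 0.05, to 5 without aged replicate 1, and was 2 without young replicate 1 or young replicate 4 and 1 without young replicate 3. Across these 7 fits Noa1 was called in 6, Nsun4 in 5, Eral1 in 2 and Gtpbp10 in 1. Among 15 translation and mRNA factors Guf1, a ribosome-bound GTPase, was higher in aged Tregs (log2 fold change 0.32, edgeR adjusted p = 0.0371), but it passed the threshold 0 times of 7 when each library was dropped in turn, and DESeq2 called 0 of the 15. In those 7 fits the list gave 1 call without aged replicate 2, lower in aged Tregs, and 0 otherwise. The 20 aminoacyl-tRNA synthetase and amidotransferase genes of the mitochondrion and the 12 genes of mitochondrial transcription and DNA maintenance gave 0 calls each by edgeR, DESeq2, limma voom and limma-trend, and edgeR gave 2 in each list at an unadjusted p-value under 0.05. Without aged replicate 1, edgeR called 1 of the 20, lower in aged Tregs.

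The members lie on 17 chromosomes, with 10 of them on chromosome 11 and 8 on chromosome 17. Many members stand head to head with another gene, the starts of both lying within 1000 bases on opposite strands. This held for 33 of the 76 members (43.4%) and for 16.2% of the 12185 protein-coding genes tested. For 30 members the neighbour could be tested, and 4 of these neighbours (13.3%) were called, near the 16.7% over all genes tested. They were Eme2 beside Mrps34 (log2 fold change 0.99), Wdfy1 beside Mrpl44 (0.72), Pnpla7 beside Mrpl41 (0.45) and Ighmbp2 beside Mrpl21 (-0.45). Eme2 and Pnpla7 were called in all 7 of the fits without 1 library, Wdfy1 in 2 and Ighmbp2 in 1. None of the members in these 4 pairs was called. Of the 4 members called, only Mrpl47 had a tested neighbour. This was Ndufb5, a subunit of complex I, at 40.4 ± 8.02 CPM in aged and 40.4 ± 3.55 CPM in young Tregs (log2 fold change -0.00, SE 0.15). Member and neighbour had fitted values of the same sign in 19 of 30 pairs, in which Mrpl46 and Mrps11 face each other and count as a pair from both sides.

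**Figure D5:**
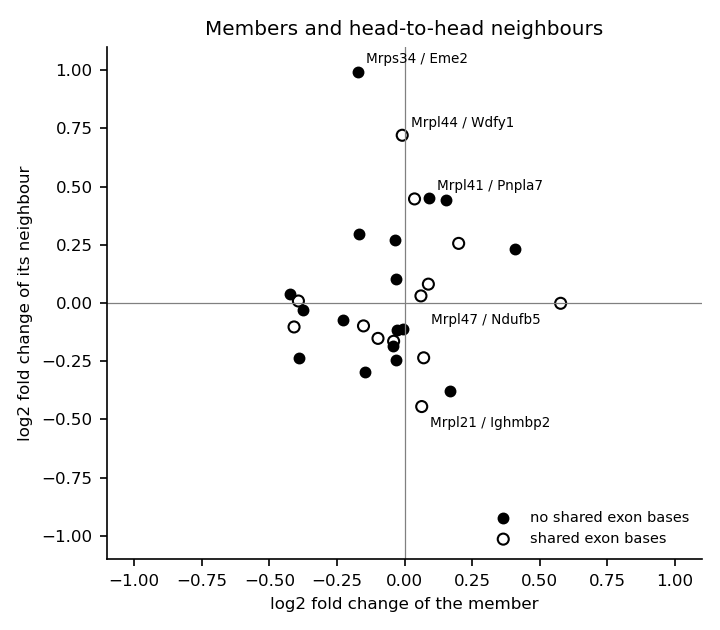
Log2 fold change of aged over young Tregs for 30 members (horizontal axis) and for the gene whose start lies head to head with theirs (vertical axis). Open circles are pairs that share exon bases; labels mark pairs in which either gene was called. The labelled neighbours Eme2, Wdfy1, Pnpla7 and Ighmbp2 lie at 0.99, 0.72, 0.45 and -0.45, beside members that were not called, of which Mrps34 has an SE of 0.66.

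RefSeq promoters, from 250 bases before to 50 after the start, were found for 67 members and 27025 genes in all, and motifs were searched on both strands. The ETS letters CCGGAAG were in 24 members (35.8%) and in 9.93% of all genes. The NRF1 letters GCGCATGC were in 8 (11.9%) and 3.05%. The YY1 letters AAGATGGC were in 12 (17.9%) and 3.19%. The E-box letters CACGTG were in 5 members (7.46%) beside 8.09% of all genes, and the ERR letters TCAAGGTCA were in 0 members beside 0.466%. These are counts of letters in a window and no measure of binding. The shares over all genes include genes that were not tested here. No share was taken for the cytosolic ribosomal protein genes, so these letters cannot be called particular to the members.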

How the data were processed

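Splenic CD4+CD25+ cells of aged and young mice (3 and 4 libraries) were profiled by RNA-sequencing, with cDNA made by a SMART-Seq v4 kit without molecular identifiers, so that limits cover counting error only. The authors deposited raw counts per Ensembl gene for each library (HTSeq-count naming, union mode, no strand) and a table whose signal values were checked to equal each count divided by a size factor per library (within 0.01% for 100% of the genes with enough counts). That table's columns of the authors' own comparison (fold changes and p-values) were not used, nor were its means. Build mm10 is given in the submitters' processing notes. The aligner and annotation are not given in the sources used here. Lines for reads on no gene or several genes (13.1% to 20.9%) were left out.

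The quasi-likelihood test of edgeR 4.0.16 (R 4.3.3; TMM factors, filterByExpr, no covariate) was used for aged against young, with Benjamini-Hochberg adjustment over 13904 genes. A gene was called at an adjusted p-value under 0.05. The study's methods name limma for this contrast. Here limma 3.58.1 (voom and trend, prior count 2) and DESeq2 1.42.0 were alternatives, with RLE or library-size normalization, no filter or at least 10 counts in every library, mitochondrially encoded, immunoglobulin and haemoglobin genes left out, GC and length trends removed, a block for replicate number, 1 library left out at a time, and a log2 fold change of at least 1. Intervals are 95% intervals of the fit. With 3 against 4 libraries the smallest exact permutation p is 0.0571. On simulated counts for this comparison edgeR recovered 195 of 200 genes changed by 1 on the log2 scale among 13679, with 8 false calls, and made 0 calls with no change. The simulation gave every gene the same dispersion, drew genes independently and changed only genes above a set level. It checks that the code runs as meant, and it gives no power or error rate for changes as small as those of the members.

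Exon lengths, overlaps and positions came from GENCODE M21 (GRCm38), matched by gene identifier, and may differ from the annotation counted. Members named by rule were those called, the 3 highest and 3 lowest per length, the S18 paralogues and 5 with special roles. The symbol rule for the members used no measured value, but the members, lists and marker genes were chosen with earlier results of these data known. Replicates are labelled as biological. The p-values set the difference between the ages against the spread between these libraries, estimated in part across genes.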

Additional observations from a re-analysis of the deposited data

Results flagged for a closer look

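The Mrpl34 level of young replicate 1, 11.8 CPM, stood apart from the other young libraries (15.9 to 16.5 CPM), with a gap of 0.873 of the group's range, above Dixon's critical value of 0.829 for 4 samples. The level of Eme2, the head-to-head neighbour of Mrps34, stood apart in young replicate 2, at 6.87 CPM beside 8.61 to 8.74 CPM (gap 0.927 of the range). The test was run on the young libraries for 50 results, and chance flags about 1 in 20 groups. The aged group, with 3 libraries, was not tested.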

How the results depend on the processing

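The median log2 fold change of the members stayed between -0.11 (library size only) and 0.01 (without young replicate 2), and each alternative moved it by less than the spread between libraries. The number of members called (4, with 3 higher and 1 lower) was 5 with DESeq2, limma voom and limma-trend (2 lower, Mrpl36 added), beside 11.4%, 16.4% and 17.05% of all genes, 7 with GC and length trends removed (4 lower; 18.1%), 1 with library size only (0 higher; 13.2%), 2 with no filter (1 higher; 8.72%), and 0 when a change of at least 1 on the log2 scale was also asked for (0 higher, 0 lower). With 1 library left out at a time it ran from 0 to 4, with 0 to 3 higher and 0 to 2 lower. DESeq2 and the fit with no filter took in all 25469 genes with a count in any library. The main fit and both limma fits took in 13904. The DESeq2 fit thus changed tool and filter together, and its 11.4% is a share of a larger set of genes. Calls over all genes were 2327 in the main fit (1362 higher, 965 lower). With 1 library left out they ran from 1237 without young replicate 4 to 3058 without aged replicate 1. They were 2910 with DESeq2, 1835 with library size only (960 higher, 875 lower) and 292 with the replicate block.

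Replicate numbers are shared by the groups, but same-numbered libraries did not deviate together (r = -0.09, -0.29 and -0.14). The labels name no pairing, and with so few libraries these values cannot exclude one. With the replicate block edgeR called 0 members (0 higher, 0 lower), with 6 at an unadjusted p-value under 0.05, and 292 genes in all. Of the mitochondrially encoded RNAs it called 3 of 12 and of the assembly factors 0 of 28 (6 at an unadjusted p-value under 0.05). Library size only left 1 assembly factor called.

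The fitted sign turned in at least 1 alternative for 32 of the 76 members, none of them called, with fitted log2 fold changes of at most 0.18 in size. Those whose values are given above follow. Mrpl44 was 0.0056 with at least 10 counts in every library and 0.0039 with the replicate block. Mrpl23 was -0.0349 with library size only and -0.0099 with the replicate block. Mrps10 was -0.0080 with library size only. Mrps18a was -0.0045 with DESeq2, -0.0522 with library size only and -0.0033 with no filter. Mrps34 was 0.177 with limma voom and 0.0631 with limma-trend. With 1 library left out, Mrpl23 ran from -0.0542 to 0.149, Mrpl44 ran from -0.102 to 0.105, Mrps10 from -0.0615 to 0.139, Mrps18a from -0.0144 to 0.0658, Mrps30 from -0.135 to 0.0272 and Mrps34 from -0.519 to 0.100. The cause was not tested. Mrps34 was not tested without young replicate 1 or 2, and it had the lowest counts and the widest interval of all members.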
